A study of Rattus norvegicus with 9 samples.

Results

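The VEGF and angiopoietin family was followed through its 10 members in this series, namely Vegfa, Vegfb, Vegfc, Pgf, Angpt1, Angpt2, Angptl4, Flt1, Kdr and Nrp1. They are the rows that carry these gene symbols, 10 of the 32883 genes in the deposited tables, and each symbol is listed once. The 9 RNA-seq libraries are from rat fibroblasts (Fb) in culture, 3 each of Fb-Epn from the epineurium of the sciatic nerve, Fb-Par from the nerve parenchyma inside it, and Fb-Skn from abdominal skin freed of subcutaneous fat. All came from wild-type male Lewis rats of 10 weeks, the nerves from 2 rats and the skin from 1 other rat, and were grown in medium with 10% fetal bovine serum and passaged once. Tissue, rat and body site therefore change together between nerve and skin and cannot be told apart. Nothing in the labels says that the 3 libraries of a type are separate cultures or animals, so the p-values measure the spread between these libraries, which may be technical.

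VEGF proteins are secreted growth factors that drive the growth, survival and leakiness of vessels. VEGF-A signals mainly through the receptor tyrosine kinase encoded by Kdr, while Flt1 encodes a tighter-binding receptor for VEGF-A, VEGF-B and placental growth factor that also acts as a decoy, and neuropilins are co-receptors that also bind class 3 semaphorins. Angiopoietins act on vessels through the Tie2 receptor, encoded by Tek, with Angpt1 stabilising vessels and Angpt2 often opposing it, and Angptl4 is a related protein that inhibits lipoprotein lipase. In a peripheral nerve, fibroblasts lie beside the vessels of the epineurium and endoneurium, and Vegfa and Angptl4 are textbook genes of the hypoxia response.

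Total counts per library ran from 10084584 to 12310506, and 13273 genes passed edgeR's default expression filter. Of the 7 fibroblast markers checked, 6 were matched (Col1a1, Col3a1, Thy1, Pdgfra, Dcn and Lum) and all were abundant in each type, from a mean of 80.5 TPM (a level scaled for transcript length and library total) for Pdgfra in Fb-Skn upwards. Keratinocyte and adipocyte markers summed to at most 4.36 and 0.95 TPM in any library. Schwann cell and macrophage markers were higher in the nerve libraries, and their values are given beside the results they move with.

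Promoters of 4 members are shown because Angptl4, Nrp1 and Pgf shared the pattern of low levels in skin, and Vegfa was the most abundant member. Each sequence runs from 250 bases before to 50 bases after the annotated start, 5′ to 3′ on the strand of the gene, from RefSeq on GRCr8, a different build from the rn6 of the count tables. Capitals mark the letters ACGTG or GCGTG, the core of the hypoxia response element, and GGGCGG, the GC box, each searched on both strands.
Vegfa, chr9:22452604-22452903, plus strand: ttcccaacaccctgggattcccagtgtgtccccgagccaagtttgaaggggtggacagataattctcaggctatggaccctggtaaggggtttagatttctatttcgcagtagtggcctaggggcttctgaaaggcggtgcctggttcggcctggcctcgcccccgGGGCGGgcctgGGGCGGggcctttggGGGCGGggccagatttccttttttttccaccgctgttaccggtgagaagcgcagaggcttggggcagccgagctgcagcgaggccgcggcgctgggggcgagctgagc
Angptl4, chr7:15258632-15258931, minus strand: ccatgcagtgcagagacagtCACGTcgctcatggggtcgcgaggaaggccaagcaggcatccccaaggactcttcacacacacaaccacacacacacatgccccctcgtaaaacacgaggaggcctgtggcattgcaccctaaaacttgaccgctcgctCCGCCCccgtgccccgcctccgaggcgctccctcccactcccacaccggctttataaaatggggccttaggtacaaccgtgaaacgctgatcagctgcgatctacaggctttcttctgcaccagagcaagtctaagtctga
Nrp1, chr19:73256307-73256606, plus strand: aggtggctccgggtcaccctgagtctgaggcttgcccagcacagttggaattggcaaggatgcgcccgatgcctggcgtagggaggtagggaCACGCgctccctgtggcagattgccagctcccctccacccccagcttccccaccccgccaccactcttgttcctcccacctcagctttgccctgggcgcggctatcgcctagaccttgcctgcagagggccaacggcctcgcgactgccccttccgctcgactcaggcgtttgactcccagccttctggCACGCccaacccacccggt
Pgf, chr6:110557698-110557997, minus strand: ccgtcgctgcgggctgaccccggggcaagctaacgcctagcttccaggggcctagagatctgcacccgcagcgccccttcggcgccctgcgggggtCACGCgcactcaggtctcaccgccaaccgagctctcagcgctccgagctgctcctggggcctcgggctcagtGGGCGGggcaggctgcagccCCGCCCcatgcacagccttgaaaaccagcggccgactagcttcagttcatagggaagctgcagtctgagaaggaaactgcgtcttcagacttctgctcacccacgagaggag
The Vegfa window held 3 GC boxes and no match to the hypoxia core, and Nrp1 held 2 hypoxia cores and no GC box. Angptl4 held 1 match to each motif, and Pgf held 1 hypoxia core and 2 GC boxes. Among all 33469 RefSeq promoter windows of this length, 41.6% held a hypoxia core and 33.1% held a GC box, so a match is common and describes only the letters in the window. RefSeq entries were matched for 8 of the 10 members, the others being Angpt1 and Angpt2, and Vegfa had a further entry with neither motif.

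Of the 10 members, 9 passed the expression filter and were tested, and Kdr did not pass it. Set against Fb-Skn, Fb-Epn had 7 of the 9 past an adjusted p of 0.01, beside 43.9% of all tested genes. Of these, 5 were higher in Fb-Epn (Pgf, Angpt1, Angpt2, Angptl4 and Nrp1; 23.0% of all genes) and 2 were lower (Vegfa and Flt1; 20.9%), and the 5 higher genes also exceeded a log2 fold change of 2 and so were DE genes, against 8.44% of all genes. Angpt2 passed the filter through its counts in Fb-Epn and Angptl4 through those in both nerve types, so their place among the higher genes is partly fixed by the filter.

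Between Fb-Epn and Fb-Par, 4 of the 9 members passed, beside 38.8% of all genes. Vegfa, Vegfc and Angpt1 were higher in Fb-Epn (3 of 9, against 20.2% of all genes) and Vegfb was lower (1 of 9, against 18.6%), and none was a DE gene, against 6.48% of all genes. Between Fb-Par and Fb-Skn, 6 of the 9 passed, beside 45.6% of all genes. Pgf, Angpt1, Angptl4 and Nrp1 were higher in Fb-Par (4 of 9, against 23.2%) and Vegfa and Flt1 were lower (2 of 9, against 22.4%), and Angptl4 and Nrp1 were DE genes, against 8.54% of all genes. The median log2 fold change of the 9 members was 2.07 for Fb-Epn against Fb-Skn, 0.41 for Fb-Epn against Fb-Par and 1.34 for Fb-Par against Fb-Skn, while the median over all tested genes lay between -0.01 and 0.00.

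**Figure D1:**
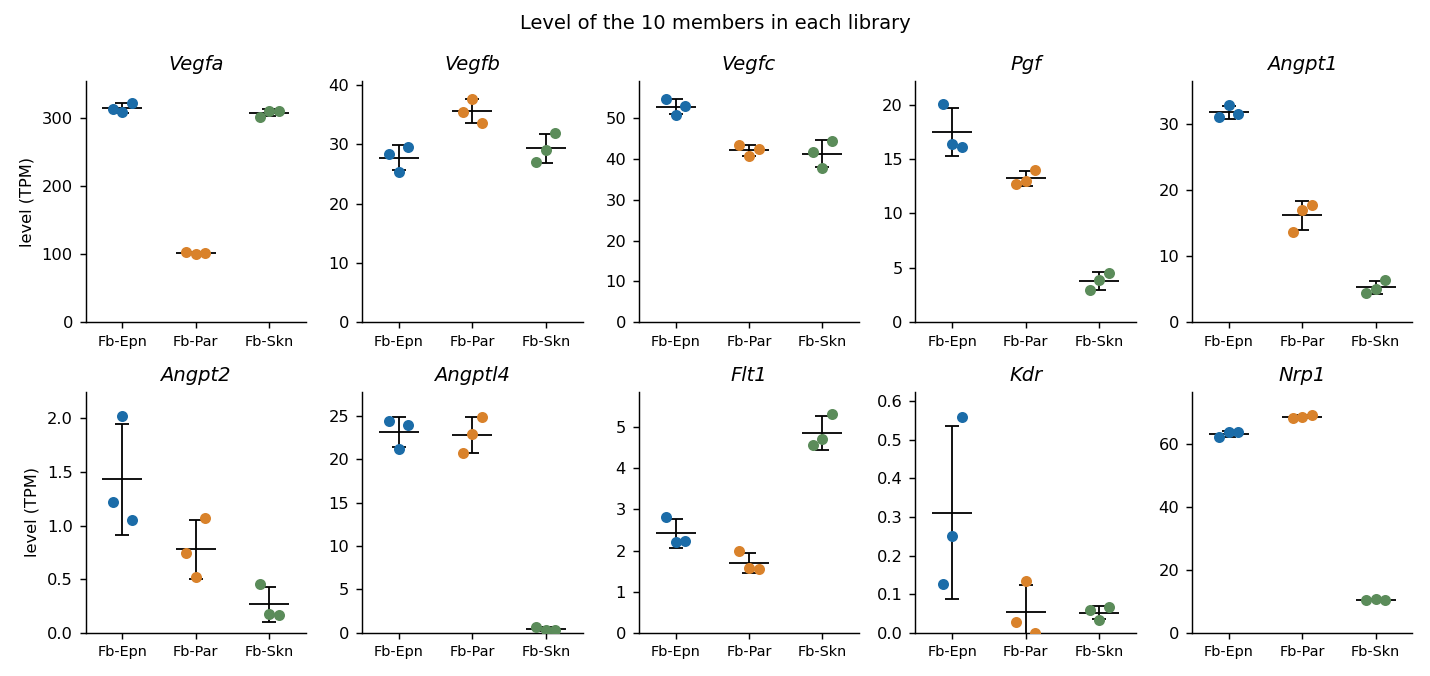
Level of each of the 10 members in TPM (vertical axes, each from 0) in the 9 libraries, 3 to a type; points are libraries, and black bars are the mean and SD of a type. Vegfa is low in Fb-Par alone, Angptl4 and Nrp1 are low in Fb-Skn, and Flt1 is highest in Fb-Skn.

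**Figure D2:**
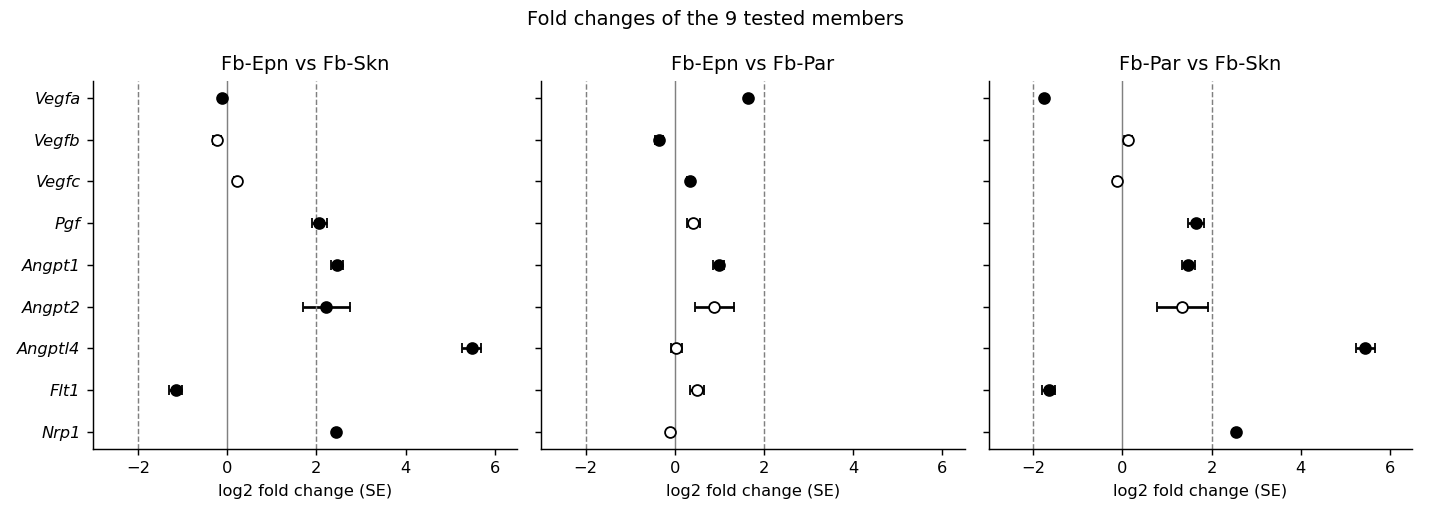
Log2 fold change (horizontal axis) of the 9 tested members in the 3 comparisons, with bars of 1 SE from edgeR; filled points passed an adjusted p of 0.01 and dashed lines mark a log2 fold change of 2 in either direction. Angptl4 has a log2 fold change of 5.48 and 5.45 against Fb-Skn and 0.03 between the nerve types.

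Among the VEGF ligands, Vegfa (chromosome 9, 17340341 to 17355681, plus strand, rn6) was in TPM the most abundant member in every library. In Fb-Par its lead over Nrp1 was small, at a mean of 1.48 times. Vegfa stood at 312, 309 and 322 TPM in the Fb-Epn libraries, at 103, 100.3 and 101 TPM in Fb-Par and at 301, 310.2 and 311 TPM in Fb-Skn. Every Fb-Par library thus lay far below every library of the other types, while Fb-Epn and Fb-Skn overlapped. Vegfa was 3.12-fold higher in Fb-Epn than Fb-Par (log2 fold change 1.64, SE 0.03, adjusted p = 4.33e-15) and 3.36-fold lower in Fb-Par than Fb-Skn (log2 fold change -1.75, SE 0.03, adjusted p = 1.69e-15). In these bulk libraries, fewer cells that express a gene and less of its RNA per cell cannot be told apart.

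Between Fb-Epn and Fb-Skn, Vegfa differed by a log2 fold change of -0.11 (SE 0.03, adjusted p = 0.00528), and this call depended on the scaling. The log2 fold change was -0.02 with library sizes alone (adjusted p = 0.64) and 0.03 in limma on log2(TPM + 1) (adjusted p = 0.387), and the adjusted p ranged from 0.0067 to 0.64 over 20 alternatives, 14 of which did not pass 0.01. The call was also lost when either of 2 Fb-Epn libraries or any of the 3 Fb-Skn libraries was left out (adjusted p of 0.0304 without Fb-Epn replicate 1, 0.0243 without Fb-Epn replicate 2, and 0.0116, 0.0178 and 0.0191 without Fb-Skn replicates 1, 2 and 3). On the TPM scale, the median of all genes shifted by 0.126 towards Fb-Epn in this comparison and by 0.123 towards Fb-Par in that of Fb-Par with Fb-Skn. Of all called genes, 52.3% were higher in Fb-Epn than Fb-Skn with TMM factors, 63.7% with library sizes alone and 69% on log2(TPM + 1), and for Fb-Par against Fb-Skn these shares were 50.8%, 61.9% and 66.9%.

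Vegfb, which encodes a ligand of Flt1 with little angiogenic activity of its own in most tissues, differed little between types. It measured 28.3, 25.4 and 29.5 TPM in Fb-Epn, 35.4, 37.7 and 33.7 TPM in Fb-Par and 27.0, 29.1 and 31.9 TPM in Fb-Skn, so that Fb-Par lay above both other types, which overlapped. It was 1.27-fold lower in Fb-Epn than Fb-Par (log2 fold change -0.35, SE 0.09, adjusted p = 0.00363). This call was lost without Fb-Epn replicate 2, Fb-Par replicate 1 or Fb-Par replicate 2 (adjusted p of 0.0223, 0.0128 and 0.0207). The log2 fold changes of -0.22 between Fb-Epn and Fb-Skn (SE 0.09, adjusted p = 0.0461) and 0.13 between Fb-Par and Fb-Skn (SE 0.09, adjusted p = 0.216) did not pass the threshold.

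Vegfc, a ligand of Flt4 and a growth factor of lymphatic vessels, was measured at 54.7, 50.9 and 53.1 TPM in Fb-Epn, 43.3, 40.7 and 42.4 TPM in Fb-Par and 41.6, 37.8 and 44.4 TPM in Fb-Skn. Fb-Epn was the highest type with no overlap, and Fb-Par and Fb-Skn overlapped. The gene was 1.26-fold higher in Fb-Epn than Fb-Par (log2 fold change 0.34, SE 0.07, adjusted p = 0.000751). Against Fb-Skn, its log2 fold change of 0.22 in Fb-Epn (SE 0.07) had an adjusted p of 0.014, which became 0.00106 on log2(TPM + 1) and 0.00164 with library sizes alone. Between Fb-Par and Fb-Skn the log2 fold change was -0.12 (SE 0.07, adjusted p = 0.15), and it turned to 0.03 on log2(TPM + 1).

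Pgf, the gene for placental growth factor, which binds Flt1 and not the Kdr product, fell from epineurium to skin. Its level was 20.02, 16.4 and 16.1 TPM in Fb-Epn, 12.7, 13.0 and 14.0 TPM in Fb-Par and 2.94, 3.90 and 4.54 TPM in Fb-Skn. The 3 types did not overlap, although Fb-Epn and Fb-Par lay close together. Pgf was 4.2-fold higher in Fb-Epn than Fb-Skn (log2 fold change 2.07, SE 0.17, adjusted p = 1.18e-07) and 3.15-fold higher in Fb-Par than Fb-Skn (log2 fold change 1.66, SE 0.18, adjusted p = 1.46e-06). The difference between Fb-Epn and Fb-Par (log2 fold change 0.41, SE 0.15) did not pass the threshold (adjusted p = 0.0336).

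Summed over Vegfa, Vegfb, Vegfc and Pgf, VEGF ligand transcripts came to 402 to 421 TPM in Fb-Epn, 191 to 194 TPM in Fb-Par and 373 to 391 TPM in Fb-Skn. Vegfa made up 76.2% ± 0.915 of this sum in Fb-Epn, 52.7% ± 0.324 of that in Fb-Par and 80.5% ± 1.07 of that in Fb-Skn (SD, n = 3 each), and the 3 ranges were separate. In Fb-Par, Vegfb and Vegfc together took most of the remainder, at 18.5% ± 1.056 and 21.9% ± 0.588. Pgf was 4.24% ± 0.515 of the sum in Fb-Epn, 6.88% ± 0.388 for Fb-Par and 0.991% ± 0.188 for Fb-Skn.

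Vegfd, which is not a member and whose product shares receptors with VEGF-C, was a further abundant ligand gene. Its level was 387, 376 and 377 TPM in Fb-Epn, 19.6, 18.1 and 19.8 TPM in Fb-Par and 144, 153 and 153 TPM in Fb-Skn, so that it exceeded Vegfa in each Fb-Epn library. Vegfd was higher in Fb-Epn than Fb-Par (log2 fold change 4.32, SE 0.04, adjusted p = 2.88e-17) and than in Fb-Skn (1.20, SE 0.03, adjusted p = 6.92e-13). Counted with it, the ligand sum was 777 to 802 TPM in Fb-Epn, 210 to 214 TPM in Fb-Par and 517 to 545 TPM in Fb-Skn, and Vegfa made up 39.7% ± 0.716, 47.9% ± 0.097 and 57.8% ± 0.678 of it (SD, n = 3 each).

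**Figure D3:**
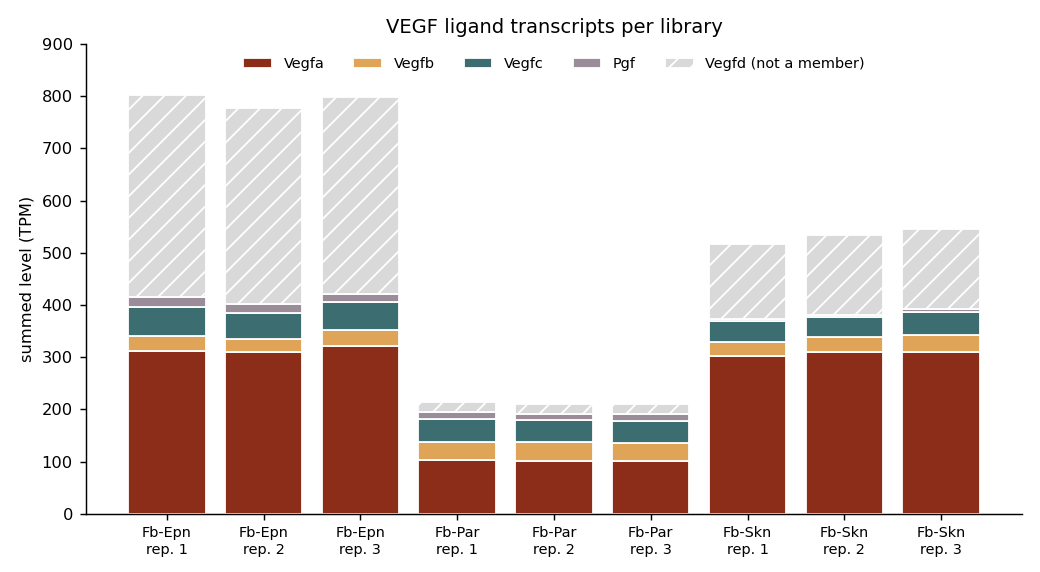
Stacked levels of VEGF ligand genes in TPM (vertical axis from 0) in each of the 9 libraries, with Vegfd, which is not a member, hatched on top. Fb-Par libraries hold 191 to 194 TPM of the 4 member ligands and the others 373 to 421 TPM, and Vegfd adds most in Fb-Epn.

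Angpt1, whose product activates Tie2, was highest in Fb-Epn and lowest in Fb-Skn. The libraries held 31.1, 33.0 and 31.5 TPM in Fb-Epn, 13.7, 17.1 and 17.8 TPM in Fb-Par and 4.37, 5.002 and 6.39 TPM in Fb-Skn, with no overlap between types. It is the only tested member that passed an adjusted p of 0.01 in all 3 comparisons besides Vegfa, whose Fb-Epn to Fb-Skn call was lost under 14 of 20 alternatives. Angpt1 was 5.52-fold higher in Fb-Epn than Fb-Skn (log2 fold change 2.46, SE 0.14, adjusted p = 1.74e-09) and 1.99-fold higher in Fb-Epn than Fb-Par (log2 fold change 0.99, SE 0.12, adjusted p = 9.72e-06). It was 2.78-fold higher in Fb-Par than Fb-Skn (log2 fold change 1.47, SE 0.15, adjusted p = 7.59e-07). These 3 calls held under each of the 20 alternatives.

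Angpt2, the context-dependent counterpart of Angpt1, was close to the limit of detection, with 15, 28 and 13 counts in Fb-Epn, 10, 6 and 13 in Fb-Par and 6, 2 and 2 in Fb-Skn, which correspond to at most 2.02 TPM. Fb-Epn counts lay above those of Fb-Skn and overlapped those of Fb-Par. The log2 fold change was 2.23 between Fb-Epn and Fb-Skn (SE 0.52, adjusted p = 0.00196), 0.89 between Fb-Epn and Fb-Par (SE 0.43, adjusted p = 0.1) and 1.34 between Fb-Par and Fb-Skn (SE 0.57, adjusted p = 0.0544). The first call was lost without Fb-Epn replicate 2, Fb-Skn replicate 2 or Fb-Skn replicate 3 (adjusted p of 0.0143, 0.0122 and 0.0118), and the log2 fold change rose to 2.88 without Fb-Skn replicate 1. Angpt2 also lies within the bounds of Mcph1 on the opposite strand, which had 74 to 118 counts in Fb-Epn, 52 to 81 in Fb-Par and 45 to 67 in Fb-Skn, and since the strand setting of the counting is not given in the sources used here, reads of the pair may not be fully separated.

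Angptl4 showed the largest difference among the members. It was measured at 24.4, 21.2 and 23.97 TPM in Fb-Epn and 20.7, 22.9 and 24.8 TPM in Fb-Par, and at 0.68, 0.33 and 0.33 TPM in Fb-Skn, where it had 7, 3 and 3 counts. The nerve types overlapped fully and every nerve library was far above the skin libraries. It was 44.7-fold higher in Fb-Epn than Fb-Skn (log2 fold change 5.48, SE 0.21, adjusted p = 1.65e-11) and 43.6-fold higher in Fb-Par than Fb-Skn (log2 fold change 5.45, SE 0.21, adjusted p = 1.65e-11). Because skin held so few counts, the size of these folds is loose, and it lay between a log2 fold change of 3.26 and 5.94 for Fb-Epn over 19 alternatives, the lowest on log2(FPKM + 1), a scale that understates changes of low genes. Between the nerve types the log2 fold change was 0.03 (SE 0.12, adjusted p = 0.846).

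Among the receptors, Flt1 was low throughout and was highest in Fb-Skn. Its level was 2.83, 2.20 and 2.23 TPM in Fb-Epn, 1.99, 1.57 and 1.55 TPM in Fb-Par and 4.56, 4.71 and 5.32 TPM in Fb-Skn, on 52 to 178 counts per library. No 2 types overlapped. Flt1 was 2.21-fold lower in Fb-Epn than Fb-Skn (log2 fold change -1.15, SE 0.14, adjusted p = 9.59e-06) and 3.15-fold lower in Fb-Par than Fb-Skn (log2 fold change -1.66, SE 0.15, adjusted p = 2.78e-07). The difference between Fb-Epn and Fb-Par (log2 fold change 0.51, SE 0.16, adjusted p = 0.0143) missed the threshold, and passed it only without Fb-Par replicate 1 (adjusted p = 0.00816) among the alternatives run.

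Kdr, the main signalling receptor for VEGF-A, was near 0 in all types. The Fb-Epn libraries had 4, 9 and 18 counts, those of Fb-Par 1, 4 and 0, and those of Fb-Skn 2, 1 and 2, which is 0.56 TPM at most. The highest libraries were Fb-Epn, and the Fb-Epn and Fb-Par ranges touched at 4 counts. A library at 0 allows up to 3 counts, so a difference between Fb-Par and Fb-Skn was not detectable at this depth, and no fold is given.

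Nrp1, the neuropilin co-receptor, varied little within a type. It stood at 62.2, 63.9 and 63.8 TPM in Fb-Epn, 68.4, 68.5 and 69.2 TPM in Fb-Par and 10.6, 10.8 and 10.4 TPM in Fb-Skn, so that both nerve types were far above skin and differed from each other by a few TPM. Nrp1 was 5.43-fold higher in Fb-Epn (log2 fold change 2.44, SE 0.04, adjusted p = 4.35e-15) and 5.85-fold higher in Fb-Par (log2 fold change 2.55, SE 0.04, adjusted p = 1.84e-15) than in Fb-Skn. Between the nerve types the log2 fold change of -0.11 (SE 0.04) did not pass the threshold (adjusted p = 0.0281). In TPM, Vegfa exceeded Nrp1 by 4.97 ± 0.116 times in Fb-Epn, 1.48 ± 0.022 times in Fb-Par and 29.1 ± 0.756 times in Fb-Skn, while Nrp1 exceeded Flt1 by 26.6 ± 3.97, 40.8 ± 5.63 and 2.19 ± 0.206 times (SD, n = 3 each).

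The other receptors of the same families followed Nrp1 in part. Nrp2, the other neuropilin gene, was at 83.0 to 92.2 TPM in Fb-Epn, 97.8 to 104 TPM in Fb-Par and 20.4 to 21.5 TPM in Fb-Skn, higher in both nerve types than in skin (log2 fold change 1.93 and 2.12, adjusted p = 1.02e-13 and 3.11e-14). Flt4, the receptor for VEGF-C and VEGF-D, had 0 to 7 counts in every library and was not tested. Tek, the angiopoietin receptor, was at 7.96 to 8.69 TPM in Fb-Epn, 9.58 to 10.7 TPM in Fb-Par and 0.91 to 1.43 TPM in Fb-Skn (log2 fold change 2.66 and 2.93 against skin, adjusted p = 1.06e-09 and 2.75e-10). Tie1, its orphan partner receptor, was at 3.79 to 4.78 TPM in Fb-Epn, 0.56 to 0.83 TPM in Fb-Par and at 0, 1 and 0 counts in Fb-Skn, and it was higher in Fb-Epn than Fb-Par (log2 fold change 2.63, SE 0.26, adjusted p = 8.98e-07).

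**Figure D4:**
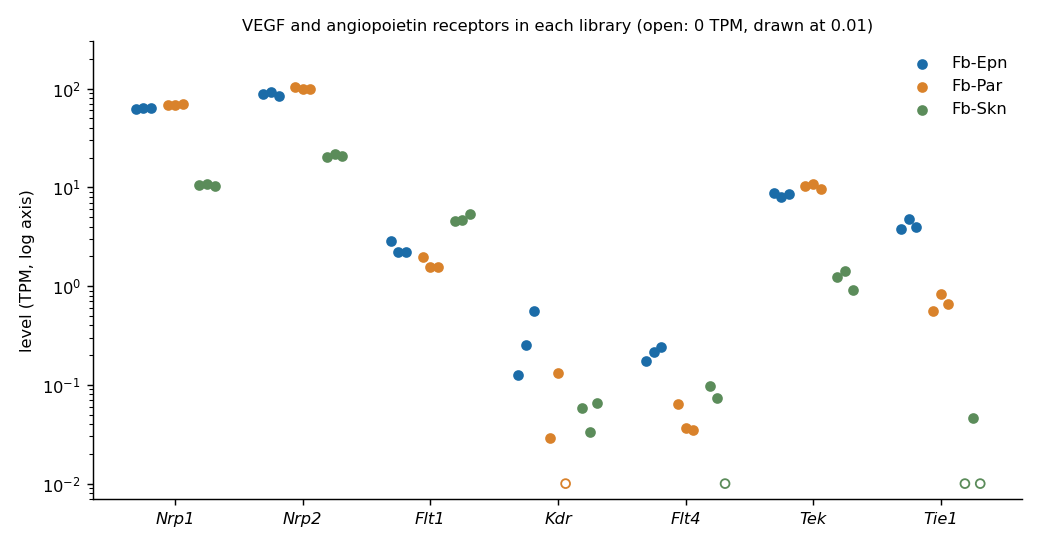
Level in TPM (vertical axis, log scale) of 7 receptor genes in each library, coloured by type; open points are libraries at 0 TPM, drawn at 0.01. Nrp1, Nrp2 and Tek are lowest in Fb-Skn, Flt1 is highest there, and Kdr and Flt4 stay under 1 TPM in every library.

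Kdr, Flt1, Tek and Tie1 are also genes of endothelial cells. Of 14 endothelial markers, Pecam1 was not analysed here, and the other 13 summed to 41.9 to 47 TPM in Fb-Epn, 32.8 to 34.2 TPM in Fb-Par and 25.9 to 35.9 TPM in Fb-Skn, with Egfl7 as the largest share at a mean of 19.7, 14.7 and 29.3 TPM. Cdh5, the junction protein that defines these cells, had a mean of 1.78 TPM in Fb-Epn, 0.097 TPM in Fb-Par and 0 in Fb-Skn. Emcn, Cldn5, Sox17, Esam, Robo4 and Plvap were also at 0 in all Fb-Skn libraries, Cldn5, Sox17 and Robo4 in all Fb-Par libraries and Robo4 in all Fb-Epn libraries. Of the 7 tested markers, 6 were higher in Fb-Epn than Fb-Skn and 1 (Egfl7) was lower, beside 23.0% and 20.9% of all genes. Cdh5, Vwf and Plvap passed the expression filter only through Fb-Epn and Tie1 only through the nerve types. The direction of these genes is therefore partly fixed by the filter. Tek and Tie1 belong to this marker list too, and the part of endothelial cells in the levels of Kdr, Flt1, Tek and Tie1 was not tested.

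Schwann cell and macrophage markers were higher in both nerve types than in skin, as were Pgf, Angpt1, Angptl4 and Nrp1, while the pericyte and smooth muscle sum was lowest in Fb-Epn and highest in Fb-Par. The 7 Schwann cell markers used, such as Sox10 and S100b, summed to 190.2 to 201 TPM in Fb-Epn, 254 to 262 TPM in Fb-Par and 10.5 to 13.2 TPM in Fb-Skn, where Sox10, Erbb3 and Cdh19 were at 0. The 7 matched macrophage and leukocyte markers, such as Cd68 and C1qa, summed to 306 to 336 TPM in Fb-Epn, 88.4 to 90.7 TPM in Fb-Par and 24.9 to 26.8 TPM in Fb-Skn, with none at 0. The 8 pericyte and smooth muscle markers summed to 43.6 to 50.7 TPM in Fb-Epn, 319 to 337 TPM in Fb-Par and 151 to 156 TPM in Fb-Skn, with Higd1b at 0 in Fb-Epn and Rgs5 and Kcnj8 at 0 in Fb-Skn. Myh11 was the largest share of this sum in each type, at a mean of 24.6, 164 and 125 TPM. Of the 7 tested markers, 5 were higher and 2 (Cspg4 and Myh11) lower in Fb-Epn than Fb-Skn, beside 23.0% and 20.9% of all genes. Rgs5, Kcnj8 and Abcc9 passed the expression filter only through the nerve types and Des only through Fb-Epn. The direction of those genes is partly fixed by the filter. The part of Schwann cells, macrophages, pericytes and smooth muscle cells in the levels of Pgf, Angpt1, Angptl4, Nrp1 and Vegfa was not tested.

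The remaining angiopoietins, angiopoietin-like genes and Tie receptors, a list of 10 genes of which 9 were tested, were higher in Fb-Epn than Fb-Skn in all 9 tested cases at an adjusted p of 0.01 (median log2 fold change 2.66), beside 23.0% of all genes. Angptl7 and Angptl8 passed the expression filter only through Fb-Epn, and Tie1 and Angptl1 only through the nerve types, so their direction is partly fixed by the filter and the count supports nothing about the list. Between Fb-Epn and Fb-Par 6 were higher, 1 was lower and 2 did not pass (median 2.25), beside 20.2% higher and 18.6% lower of all genes. Between Fb-Par and Fb-Skn 3 were higher, 2 were lower and 4 did not pass (median 0.70), beside 23.2% and 22.4%. The latter counts became 4 higher and 0 lower on log2(TPM + 1). Angpt4, another Tie2 ligand, was at 47.1 to 51.7 TPM in Fb-Epn, above Angpt1 in each of those libraries, and at 0.77 to 1.99 TPM in Fb-Par and 2.51 to 3.47 TPM in Fb-Skn (log2 fold change 4.99 against Fb-Par and 3.87 against Fb-Skn, adjusted p = 1.33e-11 and 7.21e-11). Angptl8, a partner of other angiopoietin-like proteins in the control of lipoprotein lipase, was at 37.7 to 50.3 TPM in Fb-Epn and at most 2.05 TPM in the other libraries. Angptl1 went the other way between the nerve types, with 1.94 to 2.67 TPM in Fb-Epn and 14.6 to 16.7 TPM in Fb-Par (log2 fold change -2.71, adjusted p = 7.86e-09), and 0.29 to 0.57 TPM in Fb-Skn.

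Among 14 tested secreted modulators of VEGF and vessel growth, 6 were higher and 6 lower in Fb-Epn than Fb-Skn, 8 higher and 5 lower in Fb-Epn than Fb-Par, and 5 higher and 7 lower in Fb-Par than Fb-Skn. Beside these stand 23.0% and 20.9%, 20.2% and 18.6%, and 23.2% and 22.4% of all tested genes. Apln (185 to 189 counts in Fb-Epn, at most 8 elsewhere) passed the expression filter only through Fb-Epn, and Hgf only through Fb-Epn and Fb-Skn. Their direction is therefore partly fixed by the filter. Adm, the vasodilator and angiogenic peptide adrenomedullin, had a mean of 649 TPM in Fb-Epn, 90.2 TPM in Fb-Par and 114 TPM in Fb-Skn (log2 fold change 2.85 between the nerve types, adjusted p = 5.64e-16). Cxcl12, a chemokine that attracts vessel progenitors, had a mean of 311, 18.1 and 11.1 TPM (log2 fold change 4.11 between the nerve types, adjusted p = 2.14e-15). The antiangiogenic Thbs2 had a mean of 1093 TPM in Fb-Epn, 297 TPM in Fb-Par and 1968 TPM in Fb-Skn (log2 fold change -2.88 for Fb-Par against Fb-Skn, adjusted p = 1.29e-18). Sema3f, a neuropilin ligand, had a mean of 8.67, 2.498 and 19.5 TPM in the same order (log2 fold change -3.10 for Fb-Par against Fb-Skn, adjusted p = 2.54e-11).

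Routes known to raise Vegfa and Angptl4 transcription are the hypoxia-inducible factors and, for Angptl4, the PPAR fatty-acid sensors. Hif1a was at 292 to 299 TPM in Fb-Epn, 63.3 to 69.5 TPM in Fb-Par and 94.6 to 108 TPM in Fb-Skn (log2 fold change 2.14 for Fb-Epn against Fb-Par and -0.76 for Fb-Par against Fb-Skn, adjusted p = 3.01e-14 and 3.52e-09). Its relative Epas1 was instead highest in Fb-Par, at 112 to 117 TPM, against 19.2 to 22.8 TPM in Fb-Epn and 1.93 to 2.47 TPM in Fb-Skn (log2 fold change -2.40 for Fb-Epn against Fb-Par and 5.54 for Fb-Par against Fb-Skn, adjusted p = 3.57e-13 and 7.78e-16). Transcript levels of these factors do not show their activity, which is set largely by protein stability. Egln3, a hypoxia-induced prolyl hydroxylase, had a mean of 13.8, 1.81 and 7.81 TPM in the epineurial, parenchymal and skin types. Of the 8 tested factors and regulators, 5 were higher in Fb-Epn than Fb-Skn and none lower, 3 were higher and 1 lower in Fb-Epn than Fb-Par, and 3 were higher and 3 lower in Fb-Par than Fb-Skn (5 and 2 with library sizes alone). For all tested genes, the shares higher and lower were 23.0% and 20.9%, 20.2% and 18.6%, and 23.2% and 22.4% in the same order.

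Of 19 tested hypoxia-inducible genes other than the members, 16 were higher and 1 (P4ha2) was lower in Fb-Epn than Fb-Skn (median log2 fold change 0.69). Between Fb-Epn and Fb-Par 17 were higher and none lower (median 1.10), and between Fb-Par and Fb-Skn 5 were higher and 13 lower (median -0.56), or 5 and 10 on log2(TPM + 1). Beside these 3 comparisons stand 23.0% and 20.9%, 20.2% and 18.6%, and 23.2% and 22.4% of all tested genes. The log2 fold change of Vegfa was 1.64 for Fb-Epn against Fb-Par and -1.75 for Fb-Par against Fb-Skn. For Fb-Epn against Fb-Skn it was -0.11, beside the list's median of 0.69. The part of hypoxia signalling in the levels of Vegfa and Angptl4 was not tested. Examples of the list are the glucose transporter Slc2a1 (mean 145, 34.9 and 69.0 TPM in the same order), the mitophagy gene Bnip3 (452, 101 and 248 TPM), the glycolytic Pfkl (165, 37.0 and 73.8 TPM) and the hexokinase gene Hk2 (48.5, 14.8 and 10.7 TPM).

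**Figure D5:**
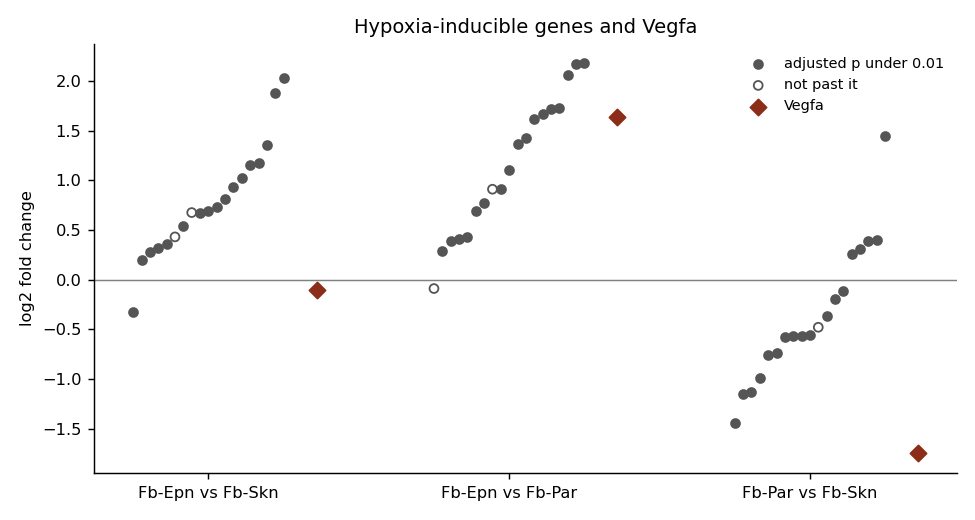
Log2 fold change (vertical axis) of 19 hypoxia-inducible genes in the 3 comparisons, sorted within each, with filled points past an adjusted p of 0.01; the diamond is Vegfa. Most genes of the list are above 0 in both comparisons of Fb-Epn and below 0 in Fb-Par against Fb-Skn, and Vegfa is at -0.11 in Fb-Epn against Fb-Skn.

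Among 9 tested PPAR and fatty-acid genes, 4 were higher and 1 lower in Fb-Epn than Fb-Skn, 3 higher and 5 lower in Fb-Epn than Fb-Par, and 6 higher and 1 lower in Fb-Par than Fb-Skn. The shares of all tested genes were 23.0% and 20.9%, 20.2% and 18.6%, and 23.2% and 22.4% in the same order. Pparg was at 7 to 17 counts in Fb-Epn, 64 to 79 counts in Fb-Par and 0 in every Fb-Skn library. Pdk4, a PPAR target that restrains glucose oxidation, was at 2 to 6 counts in Fb-Epn, 49 to 59 in Fb-Par and 0 to 2 in Fb-Skn. Both thus differed between the nerve types (adjusted p = 9.37e-06 and 2.18e-06). The log2 fold change of Angptl4 between the nerve types was 0.03, and the part of PPAR activity in its level was not tested. Fabp4, a fatty-acid carrier, was highest in Fb-Epn with a mean of 51.4 TPM against 16.4 TPM in Fb-Par and 0.498 TPM in Fb-Skn, and Cpt1a, which brings fatty acids into mitochondria, was highest in Fb-Par with a mean of 25.8 TPM against 11.03 and 5.37 TPM.

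For 7 members whose type means spanned at least 1 on the log2 CPM scale (counts scaled to library size), the 3 genes with the closest centred profile over the 9 libraries were sought among 9228 genes. Closeness is the root mean square difference in log2 CPM, and it carries no statement on shared function. Vegfa was closest to Ptgfrn (0.0523), Eln (0.0665) and Bst1 (0.0797), Pgf to Gas7, Bhlhe40 and Apbb1ip (0.103 to 0.154), and Angpt1 to Rassf4, Errfi1 and Fgfr3 (0.136 to 0.151). Nrp1 was closest to Egfr, Pla2g4a and Dysf (0.124 to 0.15), Flt1 to Sox11, Fosb and AC133403.1 (0.099 to 0.147), and Angptl4 to Lvrn, Olr1 and Nr2f1 (0.198 to 0.354). The profile of Angpt2, with its few counts, had no gene closer than 0.333 (Nod1, then Ifnlr1 and Pde3b).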

How the data were processed

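Poly(A) directional libraries were sequenced by the authors as 150 bp paired ends. Per the submitters' processing notes, FastQC 0.11.7, Trimmomatic 0.38, HISAT2 2.1.0 and featureCounts 1.6.3 were used with rn6; annotation release and strand setting are not given in the sources used here. The deposited tables hold raw counts, TPM and FPKM per gene for the same 32883 genes. The ratio of count to TPM gave a constant length for each gene within a relative deviation of 2.2e-08, whereas the FPKM values deposited by the authors deviated from a rescaling of counts by up to 12.2% among members and served as an alternative only.

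The count fit was made in edgeR 4.0.16 under R 4.3.3 (TMM factors of 0.955 to 1.03, default filter, quasi-likelihood F test) in 1 model of 9 libraries, with the 3 comparisons as contrasts. The Benjamini-Hochberg adjustment ran over 13273 genes per comparison, with a threshold of 0.01; DE genes also exceeded a log2 fold change of 2 either way. The fit was tested on simulated data. DESeq2 1.42.0 and limma 3.58.1 (pseudocounts 1 and 0.1) were alternatives, as were other size factors, filters, a replicate block and leaving out each library. The counts of the pathway lists under other scalings were added after seeing the data. Levels are deposited TPM. Libraries of 1 type had a common coefficient of variation of 8.25%. Replicates differed by more than counting noise (chi-square per gene of 3.31 to 5.48), so none was counted as a repeated sequencing of another library. This does not show that they are separate cultures or animals.

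The members and gene lists were chosen with earlier results of these data known. Named genes were the 10 members, up to 4 DE genes of highest mean TPM per pathway list, Flt4, Nrp2, Tek, Tie1, Hif1a, Epas1 and Pdk4, and the 3 genes closest in profile to a member. Cd36, Hspg2, Pfkfb4, Pecam1, Foxd3, Itgam and Col1a2, also on the lists, were not analysed here. A further Schwann cell marker of the list is not reported here and was left out of its sum.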

Additional observations from a re-analysis of the deposited data

How the results depend on the processing

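Over 533 fold changes of the 9 tested members under 20 alternatives, 502 kept their direction and their side of the adjusted p threshold, 18 fell short of it, 7 newly passed it and 6 changed sign. The sign of Vegfa between Fb-Epn and Fb-Skn turned to a log2 fold change of 0.033 on log2(TPM + 1) and 0.033 on log2(TPM + 0.1), and that of Vegfc between Fb-Par and Fb-Skn to 0.032 on both of these scales, on which the median of all genes also shifted. That of Angptl4 between the nerve types ranged from -0.037 to 0.097 when 1 library was left out. None of these values passed the threshold. The number of members past the threshold between Fb-Epn and Fb-Par was 4, and became 7 at an adjusted p of 0.05 and 0 when a log2 fold change past 2 was also required. The latter requirement brought 6 to 2 for Fb-Par against Fb-Skn. With 1 library left out, these counts ran from 5 to 7 for Fb-Epn against Fb-Skn, from 3 to 4 for Fb-Epn against Fb-Par, and stayed at 6 for Fb-Par against Fb-Skn.

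Kdr entered a fit only with no filter beyond 1 count, with an adjusted p of 0.0164 for Fb-Epn against Fb-Skn, 0.0111 for Fb-Epn against Fb-Par and 0.962 for Fb-Par against Fb-Skn. Libraries with the same replicate number did not deviate together (r from -0.0804 to 0.0198, against -0.0449 to 0.0893 for other pairs). This gave no sign of pairing by number, but it cannot exclude a shared rat or preparation. With the replicate block the counts were 6, 4 and 6 members, and the only call that changed was that of Vegfa between Fb-Epn and Fb-Skn (adjusted p = 0.0104). Depth limits Angpt2, Kdr and Flt4 in every type and Angptl4 in skin.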
